A study of Rattus norvegicus with 14 samples.

Results

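The genes described here carry fatty acids into the muscle fibre and burn them: 35 genes for uptake, activation, the carnitine shuttle, beta oxidation, electron transfer from beta oxidation, acyl-CoA hydrolysis, uncoupling and lipid droplets. They were chosen by symbol for their known roles, with earlier results of these data known, and matched to the gene names in the scanner files. All 35 had a probe that passed the filter on dim probes, out of 17457 genes that did, and each was well above background on all 14 arrays. The samples were plantaris muscles of Wistar rats, a mostly fast muscle of the calf, with 1 Agilent 1-colour array per muscle. The control diet, with vitamin D at 1000 IU per kg, was fed to 4 rats, a vitamin D depletion diet to 6, and the depletion diet followed by repletion to 4. How much vitamin D the other diets held, how long they were fed and how old the rats were is not given in the sources used here. The titles call the samples biological replicates.

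Long-chain fatty acids reach the fibre after lipoprotein lipase releases them from circulating triglycerides, cross the membrane with CD36 and FATP1, and are bound in the cytosol by FABP3. Acyl-CoA synthetases attach coenzyme A, CPT1 and CPT2 pass the acyl group through carnitine into the mitochondrial matrix, and beta oxidation removes acetyl-CoA units while its electrons pass through the electron transfer flavoprotein to the respiratory chain. Many of these genes are known targets of the PPAR and ERR nuclear receptors, and slow oxidative fibres express more of them than fast glycolytic fibres.

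Promoters of the genes to which the results below return are shown: Cd36 is the member whose depletion and control arrays did not overlap, Acot2 and Acot1 are neighbours that lay higher together, and Hadhb shares its start region with Hadha. RefSeq promoters on GRCr8, from 250 bases before to 50 bases after the start, matched 30 of the 35 genes with 31 entries, as Plin2 has 2. Acadl, Acaa2, Cpt1b, Decr1 and Lpl had no match. The 5′ end of each sequence is written first. Capitals in Hadhb mark the nuclear receptor half-site AGGTCA, here on the other strand, and capitals in Acot2 and Acot1 mark their longest shared run of 11 bases.
Cd36 (chr4:18246332-18246631, plus strand): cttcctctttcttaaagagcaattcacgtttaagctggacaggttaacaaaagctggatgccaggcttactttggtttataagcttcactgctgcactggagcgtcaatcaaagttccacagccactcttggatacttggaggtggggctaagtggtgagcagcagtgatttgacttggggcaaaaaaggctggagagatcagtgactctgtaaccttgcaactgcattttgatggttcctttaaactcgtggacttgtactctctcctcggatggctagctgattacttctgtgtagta
Acot2 (chr6:109342590-109342889, plus strand): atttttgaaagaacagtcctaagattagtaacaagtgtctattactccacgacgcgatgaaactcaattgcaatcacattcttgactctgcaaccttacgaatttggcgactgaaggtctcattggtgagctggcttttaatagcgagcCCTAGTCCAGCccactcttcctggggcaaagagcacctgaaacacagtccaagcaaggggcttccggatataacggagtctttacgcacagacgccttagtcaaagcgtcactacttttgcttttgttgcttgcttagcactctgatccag
Acot1 (chr6:109367024-109367323, plus strand): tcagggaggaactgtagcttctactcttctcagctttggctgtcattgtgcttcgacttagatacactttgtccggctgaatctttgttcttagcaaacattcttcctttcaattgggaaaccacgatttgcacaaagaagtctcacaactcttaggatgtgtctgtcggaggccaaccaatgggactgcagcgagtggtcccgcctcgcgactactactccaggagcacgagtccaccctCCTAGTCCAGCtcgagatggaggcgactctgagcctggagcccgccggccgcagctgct
Hadhb (chr6:31907451-31907750, minus strand): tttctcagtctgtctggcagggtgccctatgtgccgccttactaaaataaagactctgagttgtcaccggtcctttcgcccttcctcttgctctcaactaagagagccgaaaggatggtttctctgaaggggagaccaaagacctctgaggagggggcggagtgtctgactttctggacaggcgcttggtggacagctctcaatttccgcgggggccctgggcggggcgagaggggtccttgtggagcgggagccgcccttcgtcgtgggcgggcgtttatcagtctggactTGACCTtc
The starts of Acot2 and Acot1 lie 24.4 kilobases apart in the same orientation. Hadha, on the plus strand at chr6:31907551-31907850, starts 301 bases from Hadhb in the opposite orientation, so the windows of these 2 genes share 200 bases. Ucp3 and Ucp2 start 23.5 kilobases apart on chromosome 1. The longest run shared by their windows was 10 bases, close to the 11 of Acot2 and Acot1.

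Exact copies of 3 nuclear receptor motifs were searched on both strands. The direct repeat with a spacer of 1 base, AGGTCANAGGTCA, the PPAR type, was in 0 of the 31 promoters, against 0.0538% of all 33469 promoters of the same length. The direct repeat with a spacer of 3 bases, AGGTCANNNAGGTCA, the vitamin D receptor type, was in 0 of 31, against 0.0239% of all. The ERR-type site TCAAGGTCA was in 0 of 31, against 0.433% of all. Exact copies this rare would seldom fall in any 31 promoters, so these counts do not show that such sites are absent. The half-site AGGTCA, which is part of each of these motifs, was in 7 of 31 promoters (22.6%), against 16.2% of all: those of Slc27a1, Acadvl, Hadhb, Echs1, Eci1, Ucp3 and Plin5. The promoters of Acadvl and Ucp3 each held 2 copies, and that of Cd36, printed above, held none. The members' promoters had a median GC content of 59.7%, against 51.7% of all promoters.

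Levels are log2 of the processed signal relative to the array's 75th percentile, so 0 is the level of that percentile and 1 unit is a doubling. Levels are compared between arrays for 1 probe and not between genes. The 14 arrays lay on 5 slides that held 2 to 4 arrays each. On slide 1 were control replicates 1 and 2, depletion replicate 1 and repletion replicate 1. Slide 2 held 1 array of each group, slide 4 held control and depletion arrays, and slides 3 and 5 held depletion and repletion arrays. The first principal component took 39.1% of the variance and 0.996 of it lay between slides. Between slides, 25.8% of all genes differed at an adjusted p under 0.05 (limma F test), and 0 of the 35 fatty acid genes did. Because of the slide differences over all genes, and not of those in the members, differences between diets were taken with slide as a block.

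Depletion replicates 1 and 2 stood apart. Albumin, a liver protein, was at 0.93 and 1.06 on these arrays and at -5.67 or lower on the other 12, and transthyretin was at -1.01 and 0.27 against -4.61 or lower. The liver fatty acid binding protein Fabp1, no member of the list, was at -3.44 and -3.13 on them, at -3.97 on depletion replicate 5 and at -6.10 or lower on the other arrays. The mean of 4 hepatocyte transcripts (with Apoa1) was -6.70 to -6.13 under control, -7.00 to -5.82 under repletion and -6.90 to -5.44 on depletion replicates 3 to 6. All 4 were higher under depletion than control, against 46.2% of all genes, by a median of 2.47, or by 0.37 without replicates 1 and 2. The diet field of depletion replicate 1 also gives depletion and repletion where its title gives depletion. It was kept in the depletion group by title. Of the 35 genes, 17 (48.6%) had their highest or lowest value of all arrays on depletion replicate 1 and 14 (40.0%) on depletion replicate 2, against 34.1% and 19.8% of all genes. The main differences that involve depletion are therefore given with and without these arrays. Their part in the results was not tested.

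**Figure D1:**
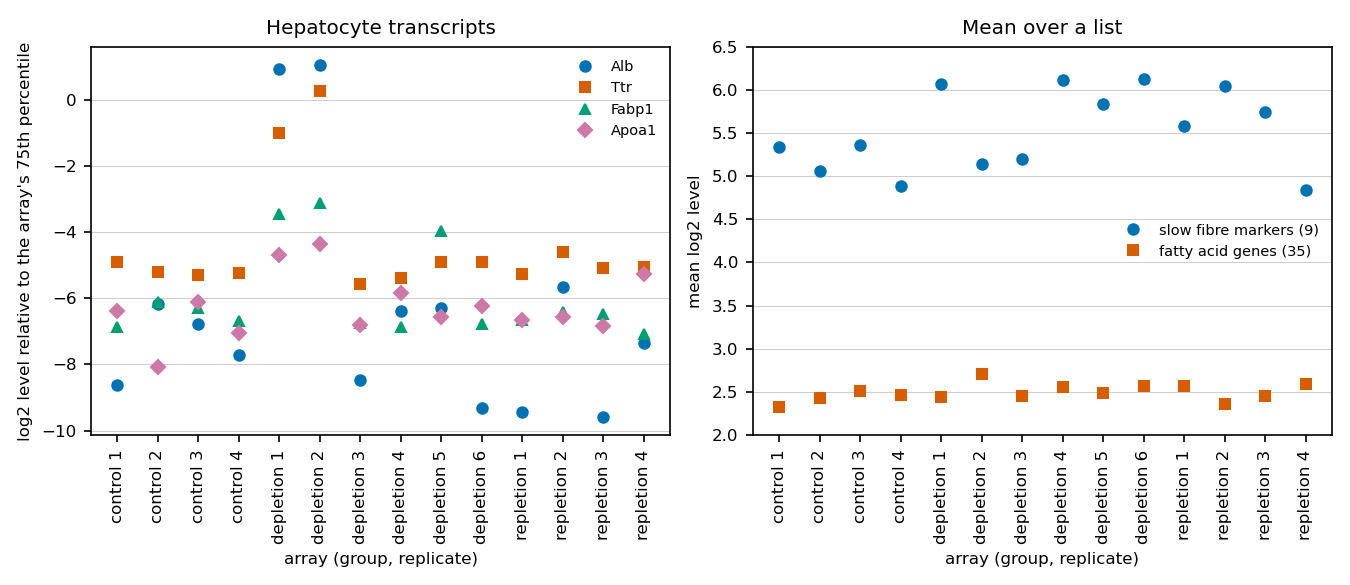
Left, log2 levels of 4 hepatocyte transcripts on each of the 14 arrays; right, the mean log2 level of 9 slow fibre markers and of the 35 fatty acid genes on the same arrays, each point 1 array. Albumin is near 1 on depletion replicates 1 and 2 and at -5.67 or lower elsewhere. The mean over the fatty acid genes lies between 2.32 and 2.70, with the highest value on depletion replicate 2.

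Of 8 skeletal muscle markers 7 were measured (not Mylpf), and their mean level was 6.97 to 7.41 on every array. Slow fibre markers mark the slow oxidative fibres. Their mean level was 4.89 to 5.36 under control, 5.15 to 6.13 under depletion and 4.84 to 6.05 under repletion. All 9 lay higher under depletion than under control, against 46.2% of all genes. Their median log2 difference was 0.73, or 0.58 without depletion replicate 1 and 1.03 without depletion replicates 1 and 2. Of the 9, 0 were called and 3 were under an unadjusted p of 0.05 (limma), against 4.75% of all genes. In bulk muscle, a different number of cells of a type and a different amount of RNA per cell cannot be told apart. Of 7 macrophage markers all were higher, against the same 46.2% of all genes, by a median of 0.48, and by 0.13 without depletion replicates 1 and 2. Their mean level was -1.80 to -1.16 under control, -1.63 to -0.39 under depletion and -1.04 to -0.83 under repletion. The 3 of 5 red blood cell markers that were measured (not Hba1 or Hba2) were higher, again against 46.2% of all genes. Their median difference was 0.89, and 0.15 without depletion replicates 1 and 2. Their mean level was -1.32 to -0.82 under control, -1.28 to 0.97 under depletion and -1.05 to -0.30 under repletion. Adipocyte markers had a median of 0.04, cardiomyocyte markers of -0.03 and fast fibre markers of -0.02, which were -0.05, -0.02 and 0.09 without those arrays, and 4 of 8 endothelial markers were higher and 4 lower in both fits. Lists of liver, slow fibre, macrophage and red blood cell transcripts thus lay higher beside the fatty acid genes described next, and their part in those differences was not tested.

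Depletion was compared with control to ask whether lack of vitamin D went with a change in the fatty acid genes. None of the 35 passed an adjusted p under 0.05 (limma, slide as a block, adjusted over 26391 probes), as 0.0% of all genes did. At an unadjusted p under 0.05 there were 3 genes, Cd36, Acot2 and Acsl6, which is 8.57% of the members against 4.75% of all genes. Of the 35, 26 had a higher mean under depletion (74.3%, against 46.2% of all genes), with a median log2 difference of 0.08 against -0.02 over all genes. With normexp background correction 25 of the 35 were higher, against 28.1% of all genes. The median over all genes was then -0.13 and that of the members 0.09, so the wider contrast came from the move of all genes. Without depletion replicates 1 and 2, only slide 4 held both control and depletion arrays, 1 of each. The counts were then 23 higher, against 48.2% of all genes, with a median of 0.06. In that fit 0 members were under an unadjusted p of 0.05 (limma), against 3.39% of all genes. Without slide as a block and without both replicates, 25 were higher, against 44.8% of all genes, with a median of 0.09. In that fit 3 were under that p, Cd36, Etfb and Plin5, against 5.67% of all genes.

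**Figure D2:**
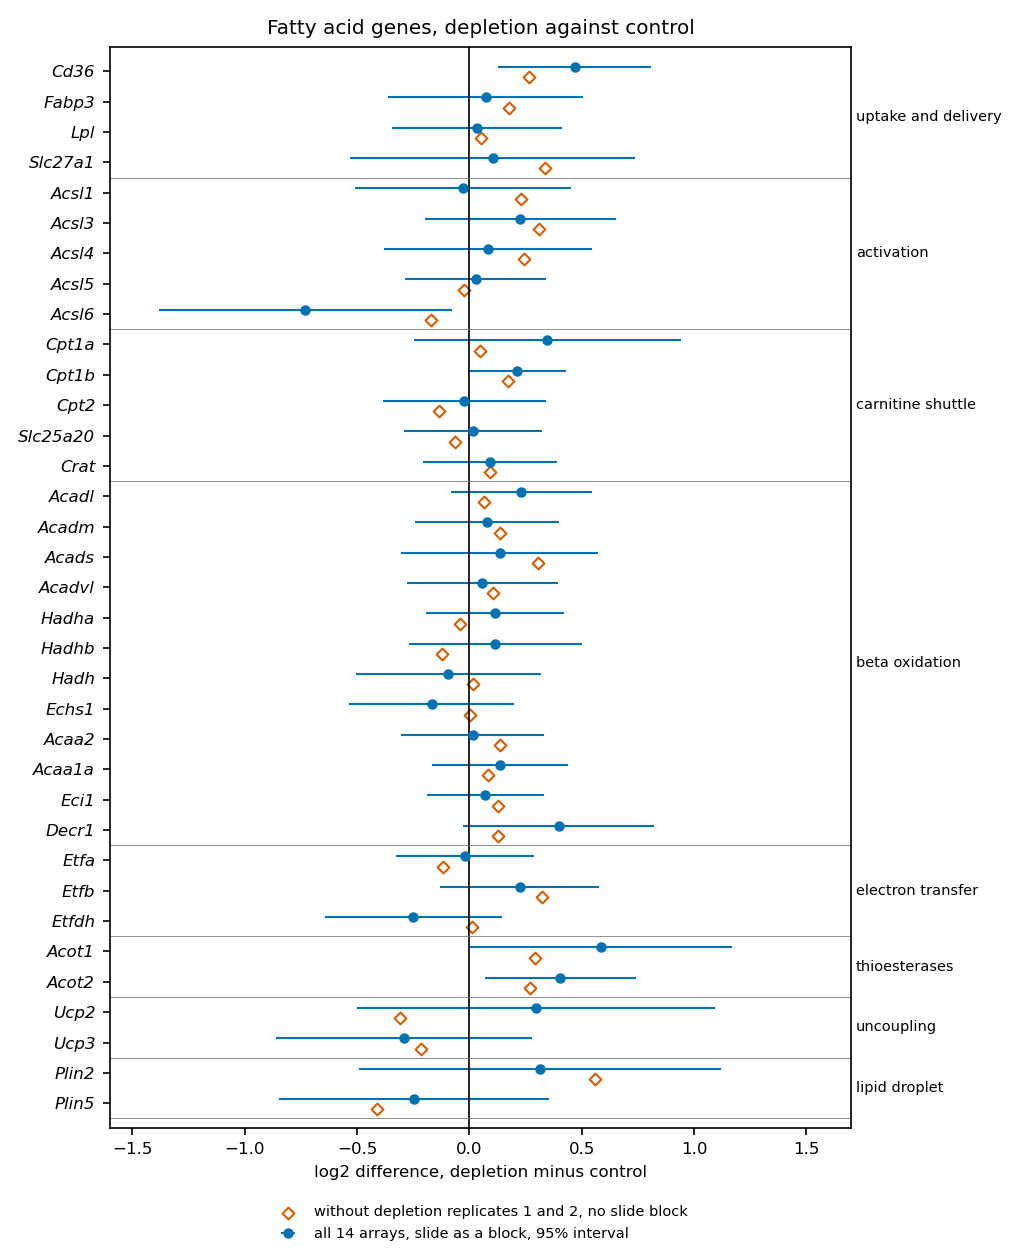
Log2 difference between depletion and control for each of the 35 genes, grouped by role: filled points with 95% intervals are from all 14 arrays with slide as a block, open diamonds leave out depletion replicates 1 and 2 and the block. The intervals of 3 genes, Cd36, Acot2 and Acsl6, do not include 0, and for all 3 the diamond lies nearer to 0.

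Among the genes for uptake and delivery, Cd36, the main fatty acid translocase of the muscle membrane, lay higher under depletion. Its probe (rn4 chr4:13525426-13525485) read 4.78, 4.83, 4.84 and 5.05 on the control arrays. Under depletion it read 5.60, 5.43, 5.07, 5.25, 5.07 and 5.16, and under repletion 5.27, 4.83, 5.04 and 5.12, each in order of replicate number. Every depletion array was above every control array, the only such case among the 35 genes (2.86%, against 0.848% of all genes), and the repletion arrays overlapped both groups. The highest depletion values were those of replicates 1 and 2, and the gap from the highest control to the lowest depletion array was narrow.

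The log2 difference of Cd36 was 0.47 ± 0.15 (SE), or 1.38-fold, with a 95% interval of 0.13 to 0.81. The unadjusted p was 0.012 and the adjusted p 0.83 (limma); over the alternatives the adjusted p was 0.58 to 1.0. With all arrays and no slide block the difference was 0.39. It was 0.36 without depletion replicate 1 and 0.20 without both replicates 1 and 2, and 0.27 when slide was also left out of the model. Within slides it was 0.79 on slide 1, 0.59 on slide 2 and 0.03 on slide 4. A second Cd36 probe gave 0.35 ± 0.17. On slides 1 and 2 the depletion arrays were replicates 1 and 2. Slide 4, with control replicate 4 and depletion replicate 5, was thus the only direct contrast within a slide free of them. That slide showed almost no difference. With slide as a block, fits without replicates 1 and 2 rest directly on this pair and otherwise on links through repletion arrays.

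The other 3 genes of uptake had small differences between depletion and control, each with an interval that included 0. Fabp3, the cytosolic fatty acid binding protein of muscle, was at 5.15 ± 0.16 (SD, n = 4) under control and 5.26 ± 0.30 (SD, n = 6) under depletion. Lpl, lipoprotein lipase, was at 0.54 ± 0.28 (SD, n = 4) and 0.55 ± 0.24 (SD, n = 6). Slc27a1, the transporter FATP1, was at -0.04 ± 0.57 (SD, n = 4) and 0.20 ± 0.41 (SD, n = 6). The log2 differences in the block model were 0.07, 0.04 and 0.10, and 0.18, 0.21 and 0.18 without depletion replicates 1 and 2.

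The 5 acyl-CoA synthetases, which activate fatty acids, did not move together: 3 were higher and 2 lower under depletion, with a median of 0.03. Acsl6 had the lowest difference of all 35 genes. Its probe (rn4 chr10:39777717-39777776) read 0.28, 0.59, -0.31 and 0.60 under control. Under depletion it read -1.41, -0.23, 0.11, -0.10, 0.32 and 0.15, and under repletion -0.27, -0.31, -0.0047 and 0.33. The lowest value came from depletion replicate 1, and the other 5 depletion arrays lay within the range of the control arrays.

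The log2 difference of Acsl6 was -0.73 ± 0.29 (SE; 95% interval -1.38 to -0.08), with an unadjusted p of 0.032 and an adjusted p of 0.83 (limma). All arrays with no slide block gave -0.48. Leaving out depletion replicate 1 gave -0.29, and leaving out replicates 1 and 2 gave -0.39, or -0.17 with no slide block. Within slide 1 it was -1.84, within slide 2 0.08 and within slide 4 -0.28. Acsl1, the main synthetase of muscle, stood at -0.03 ± 0.21 (SE), and at 0.28 without depletion replicate 1, where it had its lowest value. Acsl3, Acsl4 and Acsl5 had differences of 0.23, 0.08 and 0.03, each with a 95% interval that included 0, and of 0.16, -0.02 and 0.0013 without depletion replicates 1 and 2.

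Of the 5 genes of the carnitine shuttle 4 were higher under depletion, against 46.2% of all genes, with a median of 0.09. Cpt1b encodes the muscle form of carnitine palmitoyltransferase 1, the step at which malonyl-CoA limits entry into mitochondria. It read 5.45, 5.62, 5.41 and 5.44 under control (rn4 chr7:127737188-127737247). It read 5.94, 5.52, 5.67, 5.68, 5.55 and 5.72 under depletion, and 5.65, 5.41, 5.59 and 5.61 under repletion. Of the 6 depletion arrays 4 were above every control array, the highest being replicate 1, and the groups overlapped.

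The log2 difference of Cpt1b was 0.21 ± 0.10 (SE; 95% interval -0.0051 to 0.43), and 0.14 without depletion replicates 1 and 2. A second Cpt1b probe gave -0.02 ± 0.13, so its 2 probes disagreed in sign. Cpt1a, the liver form, had a difference of 0.35 ± 0.26 (SE), which turned to -0.23 without depletion replicates 1 and 2. Cpt2 and Slc25a20, the inner membrane transferase and the carnitine-acylcarnitine carrier, had differences of -0.02 and 0.02. Crat, carnitine acetyltransferase, had 0.09 ± 0.13 (SE). These 3 were at -0.11, 0.11 and 0.07 without depletion replicates 1 and 2.

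Of the 12 beta oxidation genes 10 were higher under depletion, against 46.2% of all genes, but by little. The median was 0.10, the lowest difference -0.17 for Echs1 and the highest 0.40 for Decr1. None had an unadjusted p under 0.05. Leaving out depletion replicate 1, 12 of 12 were higher, against 49.0% of all genes, with a median of 0.12 and a range from 0.0034 to 0.29. Leaving out replicates 1 and 2, 9 were higher, against 48.2% of all genes, with a median of 0.03. The 4 acyl-CoA dehydrogenases, which take the first step for chains of different length, had differences of 0.23 for Acadl, 0.08 for Acadm, 0.13 for Acads and 0.06 for Acadvl. These were 0.12, 0.16, 0.25 and 0.15 without depletion replicates 1 and 2.

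Decr1, the dienoyl-CoA reductase needed for unsaturated fatty acids, had the highest difference of this role, 0.40 ± 0.19 (SE; 95% interval -0.03 to 0.82). Its values were 2.99 to 3.56 under control and 3.06 to 3.98 under depletion. The highest 2 were those of depletion replicates 1 and 2, and without these arrays the difference was 0.03. Hadha and Hadhb encode the subunits of the trifunctional protein and share the promoter region above. Their differences were 0.11 ± 0.14 and 0.12 ± 0.17 (SE) with all arrays, and 0.02 and -0.16 without depletion replicates 1 and 2. A second Hadha probe gave -0.04, and a second probe of the thiolase Acaa1a gave -0.07 against 0.14 for the probe used. The other genes of the later steps, Hadh, Echs1, Acaa2, Acaa1a and Eci1, lay between -0.17 and 0.14, and between -0.10 and 0.13 without depletion replicates 1 and 2.

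The flavoprotein genes that carry electrons from beta oxidation differed among themselves. Etfb, the beta subunit, had a difference of 0.22 ± 0.16 (SE) between depletion and control, Etfa, the alpha subunit, of -0.02 and Etfdh, the ubiquinone oxidoreductase, of -0.25 ± 0.17. The Etfdh value of depletion replicate 2 was missing because its spot was marked as an outlier, so its fit rests on 13 arrays. Etfdh was at 1.54 on depletion replicate 1 and at 1.95 to 2.27 on the other 4 depletion arrays, and without replicate 1 its difference was -0.03. Etfb was at 0.36 and Etfa at -0.12 without depletion replicates 1 and 2.

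Both acyl-CoA thioesterases, which release free fatty acid from acyl-CoA, lay higher under depletion. The cytosolic enzyme Acot1 (rn4 chr6:108049691-108049750) read -3.20, -2.88, -3.17 and -2.90 under control. Under depletion it read -1.70, -2.39, -2.82, -2.47, -3.21 and -2.49, and under repletion -2.87, -3.00, -3.07 and -2.41. Of the 6 depletion arrays 5 were above every control array, and replicate 5 was at the level of the lowest control array.

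The mitochondrial enzyme Acot2 (rn4 chr6:108024282-108024341) read 1.43, 1.83, 1.37 and 1.56 under control. Under depletion it read 2.26, 1.93, 1.84, 1.98, 1.55 and 1.90, and under repletion 2.01, 1.54, 1.63 and 2.02. Replicate 5 was the depletion array within the control range, and replicate 1 was the highest of all arrays. The repletion arrays spread over both other groups.

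The log2 difference of Acot1 was 0.58 ± 0.26 (SE; 95% interval -0.0010 to 1.17), with an unadjusted p of 0.050 and an adjusted p of 0.83 (limma). That of Acot2 was 0.40 ± 0.15 (SE; 95% interval 0.07 to 0.74), or 1.32-fold, with an unadjusted p of 0.024 and an adjusted p of 0.83 (limma). Over the alternatives, both adjusted p values ran from 0.58 to 1.0. Without depletion replicates 1 and 2 the differences were 0.06 for Acot1 and 0.21 for Acot2, and 0.29 and 0.27 without slide as a block as well. Leaving out depletion replicate 1 alone gave 0.27 for Acot1, and leaving out control replicate 4 or depletion replicate 5 gave 0.90. These 2 are the only arrays of slide 4, so leaving out either removes the contrast within that slide and gives the same estimate. Within slides, Acot1 differed by 1.34 on slide 1, 0.77 on slide 2 and -0.31 on slide 4, and Acot2 by 0.63, 0.56 and -0.01. A second Acot2 probe gave 0.24 ± 0.15. Acot1 and Acot2 are close copies of each other, and their probes could in part read both transcripts, which was not tested.

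**Figure D3:**
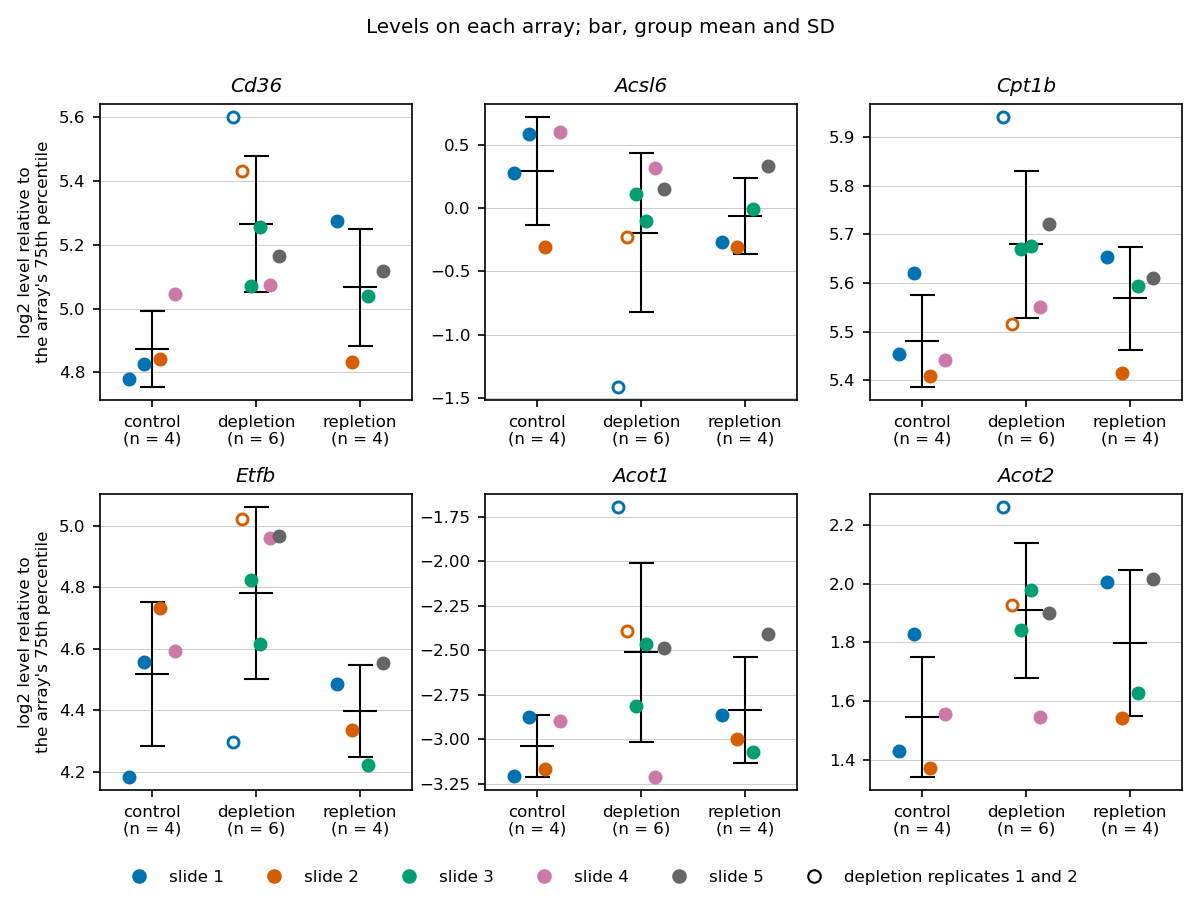
Log2 level of 6 genes on each array by diet group, coloured by slide; open points are depletion replicates 1 and 2, and the bars give the mean and SD over all arrays of a group. The Cd36 values under depletion, 5.07 and higher, do not overlap with those under control, 5.05 and lower, while in the other 5 genes the groups overlap.

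In the pairs for uncoupling and lipid droplets, 1 gene was higher and 1 lower. Ucp3, the uncoupling protein of muscle mitochondria, had a difference of -0.29 ± 0.25 (SE) between depletion and control, and its neighbour Ucp2 of 0.30 ± 0.36. Without depletion replicates 1 and 2 they were at -0.35 and -0.32. Plin2, a coat protein of lipid droplets in most cells, had 0.31 ± 0.36 with all arrays and 0.74 without these 2 arrays. Plin5, the droplet protein that tethers to mitochondria, had -0.25 ± 0.27 and -0.35. Plin2 ranged from -0.02 to 1.64 within the depletion group and from 0.32 to 0.67 under control.

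Repletion was compared with depletion to ask whether a return of vitamin D changed these genes again. None of the 35 passed an adjusted p under 0.05 (limma), as 0.0% of all genes did, and 1 had an unadjusted p under 0.05 (2.86%, against 3.42% of all genes). Of the 35, 13 were higher under repletion (37.1%, against 58.6% of all genes), with a median log2 difference of -0.04 against 0.03 over all genes. Groups that did not overlap were found in 0 members, against 0.321% of all genes. Since depletion and repletion are compared through the same depletion arrays as above, these counts are not independent of those for depletion against control. Without depletion replicates 1 and 2, 15 were higher, against 57.6% of all genes, and the median was -0.02. In that fit 2 members had an unadjusted p under 0.05, against 3.48% of all genes: Etfb, and Cpt1a, at 0.53 ± 0.18 (SE) against 0.09 with all arrays.

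**Figure D4:**
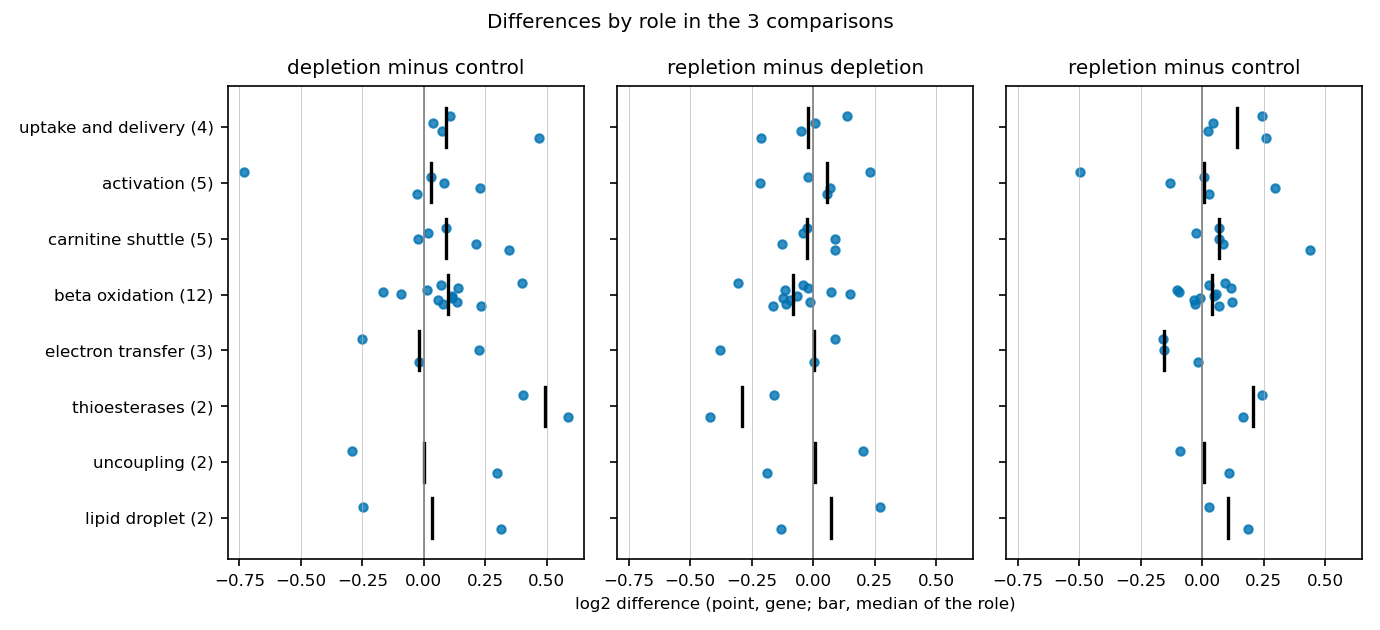
Log2 difference of each gene (points) and the median of each role (bars) in the 3 comparisons, from all 14 arrays with slide as a block. The thioesterase medians are 0.49, -0.29 and 0.20, and those of the 12 beta oxidation genes 0.10, -0.08 and 0.04.

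Etfb was the gene with that p. Its probe (rn4 chr1:93834221-93834280) read 4.18, 4.56, 4.73 and 4.59 under control. Under depletion it read 4.30, 5.02, 4.82, 4.62, 4.96 and 4.97, and under repletion 4.49, 4.34, 4.22 and 4.55. All 4 repletion arrays were below 5 of the 6 depletion arrays, and depletion replicate 1, whose diet field gives depletion and repletion, was within the repletion range.

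The log2 difference of Etfb between repletion and depletion was -0.38 ± 0.14 (SE; 95% interval -0.70 to -0.06), with an unadjusted p of 0.026 and an adjusted p of 0.93 (limma). Over the alternatives it was -0.52 to -0.29 and the adjusted p 0.74 to 1.0. It was -0.48 without depletion replicate 1 and -0.46 without replicates 1 and 2. Within slides it was 0.19 on slide 1, where the depletion array was replicate 1, -0.69 on slide 2, -0.50 on slide 3 and -0.41 on slide 5. Thus 3 of 4 slides had the same direction.

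Of the 12 beta oxidation genes 10 were lower under repletion than under depletion, where 58.6% of all genes were higher. Their median was -0.08, with a range from -0.30 for Decr1 to 0.15 for Hadh. Without depletion replicates 1 and 2, 7 were lower, where 57.6% of all genes were higher, and the median was -0.03. Acot1 had a difference of -0.42 ± 0.24 (SE) and Acot2 of -0.16 ± 0.14, which were -0.05 and -0.02 without these arrays. Cd36 had -0.21 ± 0.14 with all arrays and -0.01 without them, and Cpt1b -0.13 ± 0.09 and -0.08. Acsl6 had 0.23 ± 0.27 and 0.03. With depletion replicate 1 counted as repletion, Acot1 was at -0.10, Acot2 at -0.08, Cd36 at -0.09, Cpt1b at -0.05 and Acsl6 at -0.18.

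Repletion against control asked whether the repleted muscles still differed. None of the 35 genes passed an adjusted p under 0.05 (limma; 0.0% of all genes) and 0 had an unadjusted p under 0.05 (against 2.11% of all genes). Of the 35, 23 were higher under repletion (65.7%, against 54.5% of all genes), with a median of 0.04 against 0.02 over all genes (0.02 and 0.02 without depletion replicates 1 and 2), and 0 had groups that did not overlap (against 1.27%). The widest differences were those of Acsl6, at -0.50 ± 0.32 (SE; 95% interval -1.21 to 0.21), and Cpt1a, at 0.44 ± 0.29 (95% interval -0.21 to 1.09). For Cd36 the difference was 0.26 ± 0.16, for Acot2 0.24 ± 0.16 and for Acot1 0.16 ± 0.28. The intervals of Cd36 and Acot2, -0.11 to 0.63 and -0.12 to 0.61, include both 0 and the difference seen under depletion.

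The order of the 3 groups was read from the fitted differences. Of the 26 genes higher under depletion than control, 15 had a repletion mean between the other 2, 7 at or below control and 4 above depletion. This order was not counted over all genes. The 26 were picked for high values on the same depletion arrays, which by itself favours a repletion mean below depletion. The counts therefore do not show a reversal. Cd36, Cpt1b, Acot1 and Acot2 were among the 15. For these 4 the repletion arrays overlapped with both other groups, so the order is not set beyond the spread between arrays. With depletion replicates 1 and 2 left out, 23 genes were higher under depletion. Of these, 15 had a repletion mean between the other 2, 2 at or below control and 6 above depletion. All 4 were again among the 15, but by little. Their log2 differences between repletion and depletion were -0.01 for Cd36, -0.02 for Acot2, -0.05 for Acot1 and -0.08 for Cpt1b.

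**Figure D5:**
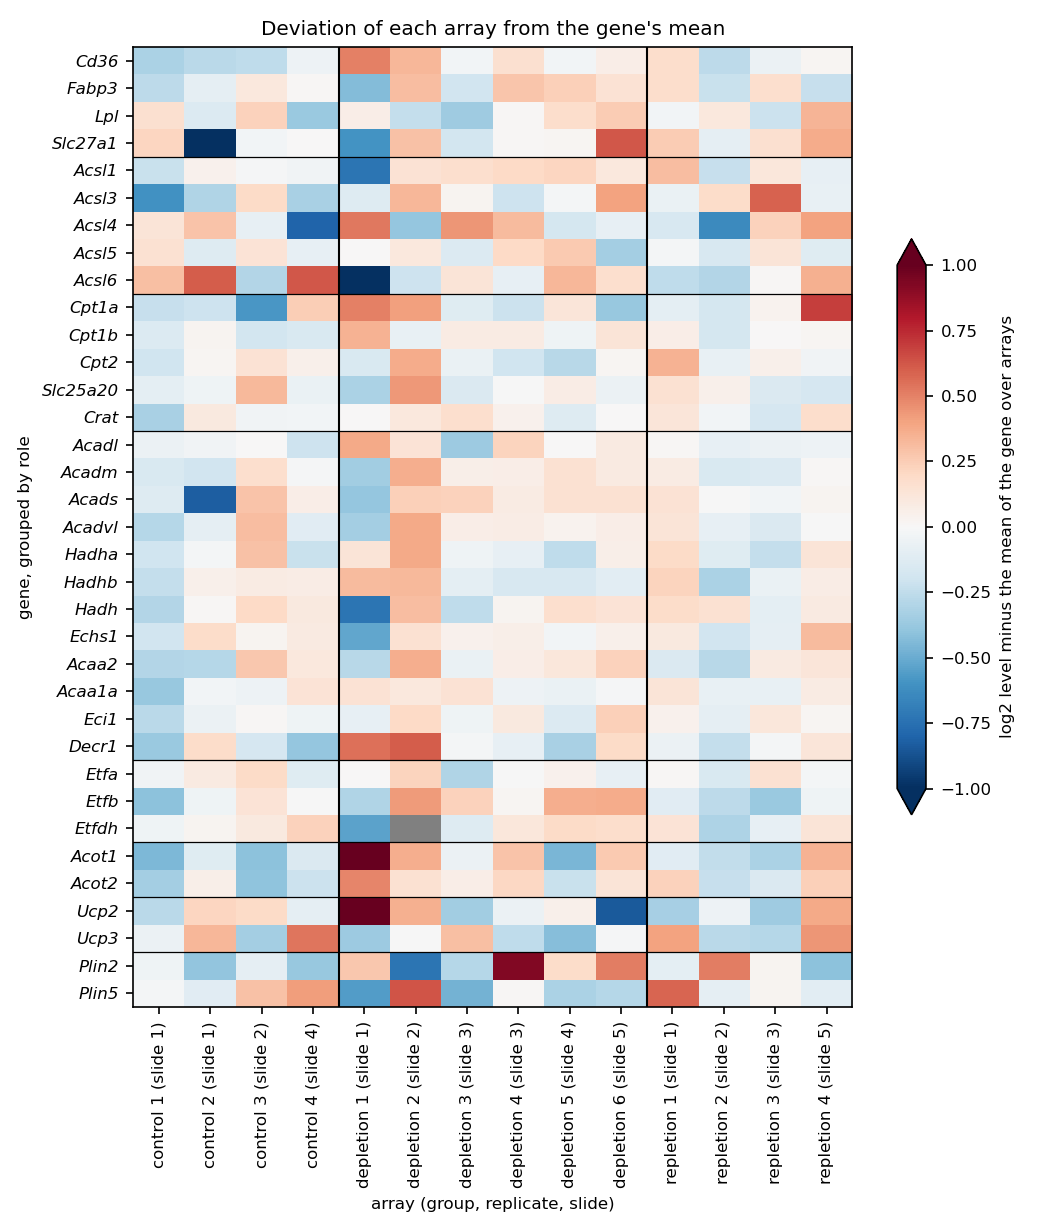
Deviation of each array's log2 level from the mean of the gene over all arrays, for the 35 genes in order of role (horizontal lines) and the arrays in order of group (vertical lines); colour runs from -1 to 1 and grey marks the missing Etfdh value. Depletion replicate 1 holds the highest value of 7 genes and the lowest of 10, and depletion replicate 2 the highest of 13 and the lowest of 1.

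The 2 arrays that stood apart differed in which fatty acid genes were at the ends of the range. On depletion replicate 1, Cd36, Acsl4, Cpt1b, Acadl, Acot1, Acot2 and Ucp2 had their highest values of all 14 arrays, while Fabp3, Acsl1, Acsl6, Slc25a20, Acadm, Acadvl, Hadh, Echs1, Etfdh and Plin5 had their lowest. On depletion replicate 2, 13 genes had their highest value, among them Fabp3, Slc25a20, Acadm, Acadvl, Hadh and Plin5, which were at their lowest on depletion replicate 1. The median SD of the members within groups was 0.23 on the log2 scale, against 0.33 over all genes, from 0.13 for Cpt1b to 0.50 for Ucp2. Without depletion replicates 1 and 2 the median was 0.20, against 0.30 over all genes. The members were well above background on all 14 arrays, where the filter for all genes needed 4. These medians were thus not matched for signal level.

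Of 53 other genes of fatty acid handling, from transport to transcription factors, 51 were measured and 0 were called in any of the 3 comparisons. Between depletion and control 19 were higher and 32 lower, where 46.2% of all genes were higher, with a median of -0.05. An unadjusted p under 0.05 was found for 1 of them, against 4.75% of all genes: Gpam, the first enzyme of triglyceride synthesis, at 0.36 ± 0.14 (SE). When depletion replicates 1 and 2 were left out, 16 were higher, against 48.2% of all genes, with a median of -0.09, Gpam was at 0.20, and the gene under that p was the thioesterase Acot7, at 0.42. The 11 genes for malonyl-CoA and transcription factors, among them the PPAR and PGC-1 genes, had a median of -0.13 with 8 lower, and of -0.14 with 8 lower without those arrays. Among the 8 lower, Ppargc1a was at -0.47 ± 0.27 (SE), Ppara at -0.41 ± 0.36 and Ppard at -0.25 ± 0.13. None of these had an unadjusted p under 0.05 (limma). Those of the 11 that were not lower are not given for this comparison. Without depletion replicates 1 and 2, Ppargc1a, Ppara and Ppard were at -0.35, -0.27 and -0.36. Ppara was at -0.0062 without depletion replicate 1 alone. Between repletion and depletion, Esrrg, an estrogen-related receptor of oxidative muscle, was at 0.37 ± 0.16 and Gpihbp1, which holds lipoprotein lipase on capillaries, at -0.62 ± 0.26, both with an unadjusted p under 0.05 (2 of 51 genes, against 3.42% of all genes). They were at 0.22 and -0.20 without depletion replicates 1 and 2, where Tmlhe, the first enzyme of carnitine synthesis, at 0.46, was the gene under that p. Between repletion and control, Esrrg at 0.45 ± 0.19 and Tmlhe at 0.44 ± 0.18 had such a p (2 of 51, against 2.11% of all genes).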

How the data were processed

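Total RNA of 14 plantaris muscles was labelled with Cy3 and hybridised in 1 colour. The deposited scanner files give an intensity per spot, background-corrected within the array by the scanner software (Agilent Feature Extraction 11.5.1.1, protocol GE1_1105_Oct12, per the file headers). The authors' deposited series table of log2 values, normalized between arrays, served as an alternative; per the submitters' processing notes limma was used. Probe coordinates are on rn4 per the file headers; the exon or UTR a probe lies in was not used here.

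Spots marked as outliers were dropped (0.669% to 1.05% of an array), the others averaged per probe and put on a log2 scale on which each array's 75th percentile (1781 to 2387) is 0. Between 82.8% and 88.1% of spots were well above background and 0 were saturated; the number of arrays limits the precision. Probes well above background on at least 4 arrays with at least 2 values per group were kept: 26391 probes of 17457 genes, each gene by its brightest probe. The 3 groups were fitted in 1 model with slide as a block (limma 3.58.1, R 4.3.3), with Benjamini-Hochberg adjustment over probes. The fits were tested on simulated data. Tables used Python 3.11.15, numpy 2.4.6 and pandas 2.3.3, figures matplotlib 3.10.9.

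All 35 members are accounted for. Values on every array are given for members with an unadjusted p under 0.05 and for Cd36, Cpt1b, Acot1 and Acot2. The members and lists were chosen with earlier results of these data known. Replicate numbers were not used to pair arrays in the main model. Over 12 same-number pairs the correlation of deviations from the group mean ran from -0.49 to 0.72. Slide was left in these deviations and some of the pairs share a slide, so the correlations cannot show whether numbers pair animals. Alternatives changed the slide term, scaling, background correction, filter, probe choice and the arrays used.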

Additional observations from a re-analysis of the deposited data

Results flagged for a closer look

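Over 105 tests of 1 gene in 1 group, an array lay far from the rest of its group in 6; chance gives about 1 in 20 such tests. In the depletion group, replicate 1 was low for 4 genes. Acsl1 was at 4.49, with the nearest other array at 5.33. Acsl6 was at -1.41, with the nearest at -0.23. Acads was at 4.14, with the nearest at 4.61. Echs1 was at 4.15, with the nearest at 4.63. In the control group, replicate 3 was high for Slc25a20, at 2.83 with the nearest at 2.46, and replicate 1 was low for Hadhb, at 2.13 with the nearest at 2.41.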

How the results depend on the processing

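In each comparison 0 probes were called under every alternative except 1: with depletion replicates 1 and 2 left out (chosen after seeing the data, as were both fits without a slide block that leave out depletion arrays), 1 probe was called between repletion and depletion, that of Zp2, no fatty acid gene, at an adjusted p of 0.027 (limma). In the model of the report the lowest adjusted p between depletion and control was 0.83. The median of the fatty acid genes between depletion and control kept its sign, from 0.018 without depletion replicate 2 to 0.15 within slide 2. It was 0.14 without depletion replicate 1. With that array counted as repletion, the median was 0.11 and 28 of 35 were higher, against 46.7% of all genes. Between repletion and depletion it was -0.096 to 0.044 with 1 array left out, 0.12 within slide 1 and -0.38 within slide 2. Between repletion and control it was -0.061 to 0.13 with 1 array left out, 0.22 within slide 1 and -0.22 within slide 2. Both slides hold 1 repletion array, and the cause was not tested. With normexp background correction the median over all genes between depletion and control was -0.13, and that of the fatty acid genes 0.09, with 30 of 35 above the median of all genes against 26 in the model of the report. Leaving aside single slides, 15 of 35 members kept their sign between depletion and control, 9 between repletion and depletion and 10 between repletion and control under all alternatives; Cd36, Cpt1b, Etfb, Acot1 and Acot2 were among them in each. With the replicate number as a block in place of slide, that is with a replicate block, the medians were 0.10, -0.04 and 0.07 and 0 probes were called. By the correlations with slide left in, 4 of 12 arrays matched their own number best. With 4 to 6 arrays a group, differences within the intervals given cannot be resolved.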
